A study of Mus musculus with 30 samples.

Results

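The subject is 8 mouse genes that control sterol regulatory element binding proteins (SREBPs) or act beside them in sterol supply: Srebf1, Srebf2, Scap, Insig1, Insig2, Mbtps1, Stard4 and Mylip. They were chosen by symbol, for their known roles, in a study whose results were already known, and all 8 are among 39253 genes in the deposited count table and among the 13008 genes that were abundant enough to test. Bulk RNA was measured in 4T1, a BALB/c mammary carcinoma cell line grown flat in medium with vesicle-depleted serum, after 48 or 72 h with small extracellular vesicles (sEVs) isolated from primary Ly6G+ neutrophils of wild-type female BALB/c mice. The neutrophils had been kept for 48 h with DMSO or with 10 uM 27HC, and the culture groups are named DMSO-sEV and 27HC-sEV after that exposure. 27HC is taken here as 27-hydroxycholesterol, an oxysterol, since the study's title speaks of a cholesterol metabolite. There were 6 groups: at each of 48 and 72 h, adherent cells given DMSO-sEVs, adherent cells given 27HC-sEVs, and non-adherent cells given 27HC-sEVs, which had come off the dish. Each had 5 libraries, except non-adherent cells at 72 h with 4, because the submitters set replicate 5 aside as an outlier. All groups received vesicles, so the comparisons set one kind of vesicle against the other and not against cells without vesicles. Non-adherent cells come from 27HC-sEV cultures alone, which limits every comparison of attachment to those cultures.

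SREBPs are made as inactive precursors in the endoplasmic reticulum membrane. Scap escorts them to the Golgi when membrane cholesterol is low, where the site-1 protease, encoded by Mbtps1, and then the site-2 protease release the part that enters the nucleus. Cholesterol binds Scap, oxysterols bind the Insig proteins, and either event keeps the Scap and SREBP complex in the endoplasmic reticulum. SREBP-2, from Srebf2, mainly drives cholesterol synthesis and uptake, and SREBP-1, from Srebf1, mainly fatty acid synthesis. Insig1, Stard4 and Srebf2 are themselves SREBP targets, so their transcripts are often read with the pathway's output. Oxysterols also activate the liver X receptors (LXRs), which induce Srebf1 and Mylip. Mylip encodes a ubiquitin ligase that marks the LDL receptor protein for degradation.

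Promoter sequence was read for the members from RefSeq on GRCm38.p6, as windows of 300 bases that run from 250 bases before to 50 bases after each annotated start. Windows were present for 7 of the 8 genes, 12 windows in all. Below are the windows of Insig1 and Srebf2, whose transcripts fell furthest among the genes with a window, and the most downstream of 3 Srebf1 windows, the one member window with a match to the LXR type of repeat. Capitals mark a match to the sterol regulatory element core TCACNCCA in Srebf2, to the E-box CACGTG in Insig1, and to 2 half-sites GGTNA spaced by 5 bases in Srebf1, searched on both strands.
Insig1, chr5:28071162-28071461, plus strand: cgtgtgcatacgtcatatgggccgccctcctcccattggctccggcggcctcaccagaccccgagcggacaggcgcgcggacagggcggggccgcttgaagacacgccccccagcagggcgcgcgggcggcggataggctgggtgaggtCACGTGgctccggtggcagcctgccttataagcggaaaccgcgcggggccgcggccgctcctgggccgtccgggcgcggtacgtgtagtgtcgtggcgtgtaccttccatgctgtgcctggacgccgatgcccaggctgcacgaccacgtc
Srebf2, chr15:82147019-82147318, plus strand: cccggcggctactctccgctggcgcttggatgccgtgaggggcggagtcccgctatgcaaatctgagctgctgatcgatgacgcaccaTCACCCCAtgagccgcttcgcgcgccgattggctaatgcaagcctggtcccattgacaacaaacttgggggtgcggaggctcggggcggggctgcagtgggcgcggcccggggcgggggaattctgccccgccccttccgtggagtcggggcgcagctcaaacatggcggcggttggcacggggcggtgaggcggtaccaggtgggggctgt
Srebf1 window 3, chr11:60210422-60210721, minus strand: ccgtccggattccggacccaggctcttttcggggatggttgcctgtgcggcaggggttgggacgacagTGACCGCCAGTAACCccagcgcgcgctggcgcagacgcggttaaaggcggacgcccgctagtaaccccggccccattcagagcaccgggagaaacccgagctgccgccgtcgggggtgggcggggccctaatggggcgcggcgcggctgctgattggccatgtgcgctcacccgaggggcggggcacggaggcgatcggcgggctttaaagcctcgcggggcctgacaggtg
The Srebf2 match starts 162 bases before the annotated start, with a CCAAT box (ATTGG on the strand shown) 135 bases before it. Among all 32841 promoter windows 4.36% held the element core, 7.15% the E-box, 0.719% the spaced repeat and 37.4% a CCAAT box. The GC box GGGCGG, in 35.7% of all windows, was found in at least 1 window of each of the 7 genes. The E-box also occurs in both Scap windows, which overlap each other. Neither the element core nor the repeat was found in the windows of Scap, Insig1, Insig2, Mbtps1 or Mylip, which says only that those letters are not in those windows. None of the matches marked in capitals overlaps another motif searched. The gene-level values do not tell apart transcripts from the 3 Srebf1 or the 3 Insig2 starts.

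Libraries held 18.8 to 31.4 M estimated reads, and member reads per library ran from 168 for Mylip to 10705 for Insig1. All 9 epithelial marker genes, Cdh1 and Epcam among them, were read in every library, with a summed level of 3621 to 5066 CPM (reads scaled to a library of 1 M reads) in DMSO-sEV and 2545 to 4084 CPM in 27HC-sEV libraries. The neutrophil markers Ly6g, Elane, Mpo and Csf3r were at 0 in all 29 libraries. S100a8 had 0.981 to 38.3, S100a9 0 to 11.1 and Cxcr2 0 to 10.2 estimated reads per library. The 12 neutrophil markers together summed to 0.0946 to 0.895 CPM at 48 h in all 3 groups. At 72 h they summed to 0.311 to 0.982 CPM in DMSO-sEV and 1.34 to 1.97 CPM in 27HC-sEV libraries, with 1 of the 12 past the abundance filter. The 6 macrophage markers, of which 3 passed the abundance filter, summed to 1.92 to 4.26 CPM in DMSO-sEV libraries and 5.32 to 13.3 CPM in 27HC-sEV libraries. Adgre1 and C1qa were at 0 throughout, while Cd68 had 34.3 to 273, Csf1r 1.94 to 61.9 and Mrc1 0.99 to 49.9 estimated reads per library. The part of these marker shifts in the results was not tested. At 72 h, DMSO-sEV replicates 1 to 3 had scaling factors of 0.845 to 0.899 and replicates 4 and 5 of at least 0.998. Insig1, Insig2, Mbtps1, Stard4 and Mylip differed between these sets, as given beside each. At 48 h replicates 4 and 5 were also lower for Srebf1 (55.1 to 75.5 against 76.4 to 79 CPM) and narrowly for Srebf2 (135.6 to 166.1 against 166.8 to 176.6 CPM). Libraries of a group were also compared in pairs over all tested genes, by chi-square per degree of freedom. At 48 h it was 6.79 to 15.7 within these DMSO-sEV sets and 17.9 to 41 across them. At 72 h it was 3.33 to 14.2 within them and 52.7 to 118 across them. Pairs of adherent 27HC-sEV libraries at 48 h had 7.79 to 31.4. A per-library correction for transcript length and GC content, called offsets here, kept between 56.6 and 97% of all calls in the 11 comparisons, so values with it are given wherever it changes a call, a direction or a called value by more than 1.5 times.

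Levels of different genes are compared per kilobase of the longest annotated transcript. Spread here is the SD between libraries, which leaves out that all genes were read in the same libraries. In DMSO-sEV cells at 48 h Insig1 stood highest at 125 (SD 8.65, n = 5) CPM per kilobase. Mbtps1 at 32.4 (SD 3.23, n = 5), Srebf2 at 32.2 (SD 3.15, n = 5) and Stard4 at 28 (SD 1.95, n = 5) CPM per kilobase followed, and the first and second of these did not differ beyond their spread. Insig2 had 21.5 (SD 0.598, n = 5) CPM per kilobase. Scap at 18.3 (SD 1.58, n = 5) and Srebf1 at 16.9 (SD 2.29, n = 5) CPM per kilobase lay within each other's spread, above Mylip at 3.8. Within each of these libraries, though, Scap had the higher CPM of the pair, on the shorter transcript (4.227 against 4.299 kilobases). In adherent 27HC-sEV cells at 72 h the order was another. Insig2 stood highest at 36.6 (SD 1.77, n = 5) CPM per kilobase, then Mbtps1 at 29.7 and Scap at 14, while Srebf2 at 9.96 (SD 1.29, n = 5), Srebf1 at 8.95 (SD 1.72, n = 5) and Insig1 at 8.69 (SD 1.03, n = 5) lay within each other's spread. Stard4 had 5.53 and Mylip, lowest in both groups, 3.43 CPM per kilobase.

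**Figure D1:**
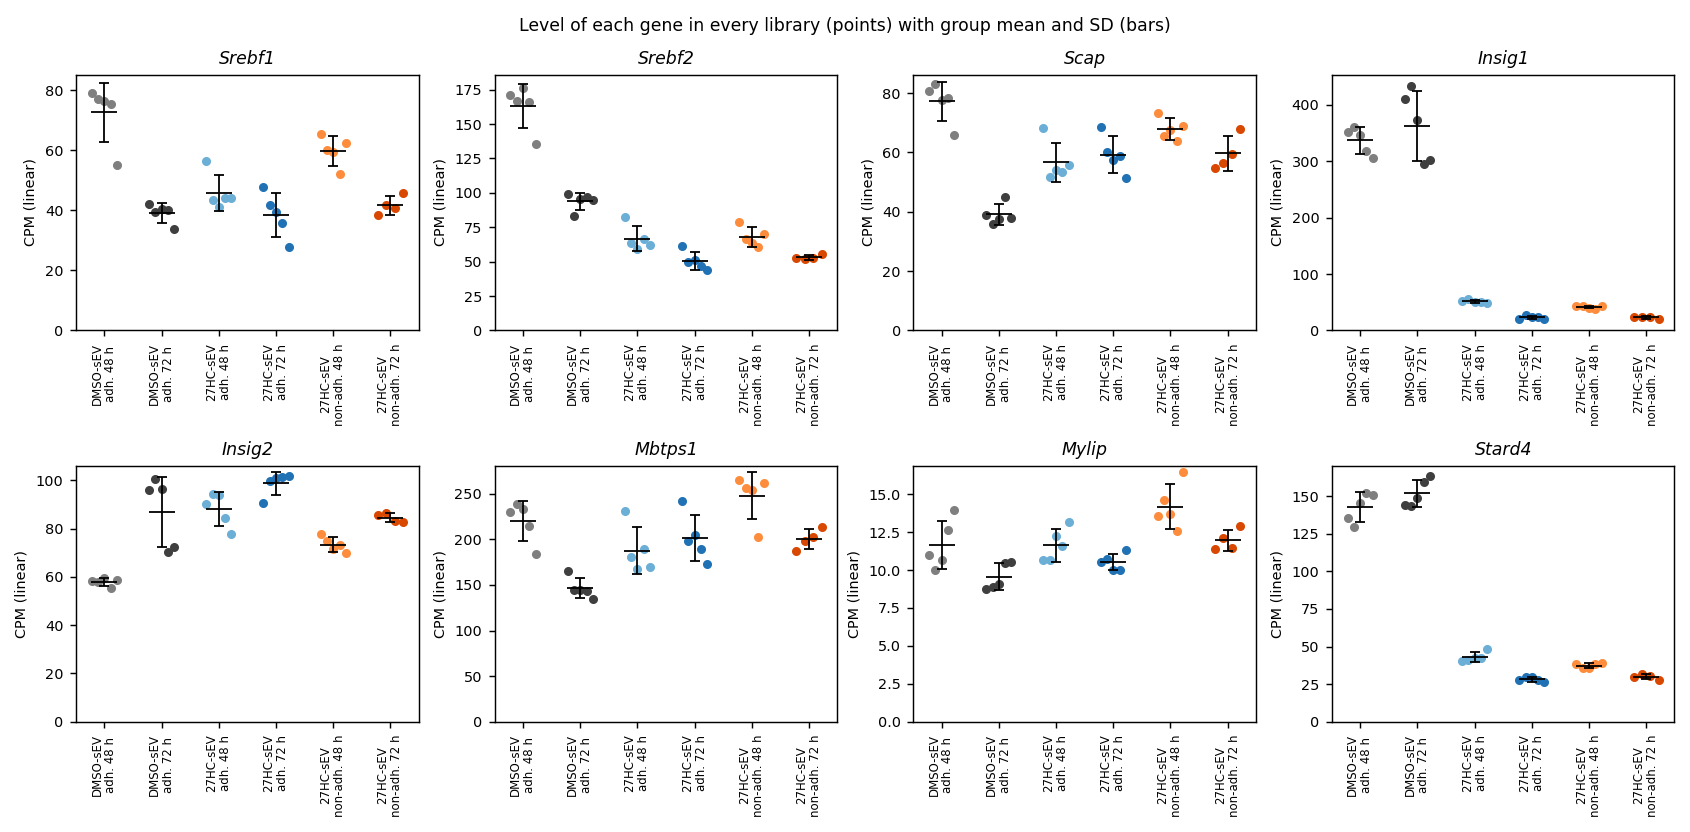
CPM of each gene (linear axis from 0) in all 29 libraries, in 6 groups of 5 or 4, with black bars for the group mean and SD. Insig1 and Stard4 lie far lower in all 27HC-sEV groups than in both DMSO-sEV groups, while Mylip spans only 8.76 to 16.5 CPM.

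Srebf2 (Entrez 20788), the gene of the factor for cholesterol synthesis, was lower in 27HC-sEV cells at both times. Its levels in DMSO-sEV replicates 1 to 5 were 171, 167, 177, 166 and 136 CPM at 48 h and 98.8, 83.2, 95.9, 97.2 and 94.6 CPM at 72 h. Adherent 27HC-sEV cells had 82.2, 63.5, 59.1, 66.6 and 62.1 CPM at 48 h and 61.3, 49.4, 51.2, 47.1 and 44 CPM at 72 h. Non-adherent cells had 78.9, 66.5, 63.3, 60.3 and 70.1 CPM at 48 h and 52.3, 51.6, 53 and 55.3 CPM in the 4 libraries at 72 h. No 27HC-sEV library at either time reached the lowest DMSO-sEV library of its time, while adherent and non-adherent libraries overlapped. As log2 fold changes, adherent cells differed from DMSO-sEV cells by -1.29 (SE 0.089, edgeR adjusted p = 1.24e-12) at 48 h, 2.45-fold lower, and -0.89 (SE 0.089, edgeR adjusted p = 1.41e-09) at 72 h, 1.86-fold lower. The fall held in all 23 alternatives at each time, with values from -1.38 to -1.16 at 48 h and from -1.30 to -0.85 at 72 h. Between fractions of 27HC-sEV cells the log2 fold change was 0.024 (SE 0.089, edgeR adjusted p = 0.834) at 48 h, which turned to -0.29 (adjusted p = 0.00655) with offsets, and 0.066 (SE 0.095, edgeR adjusted p = 0.614) at 72 h, which turned to -0.12 (adjusted p = 0.353).

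Srebf1 (Entrez 20787), the gene of the fatty acid synthesis factor, fell in adherent 27HC-sEV cells at 48 h, and at 72 h its call depended on the correction for length and GC. DMSO-sEV libraries had 79, 77.1, 76.4, 75.5 and 55.1 CPM at 48 h and 42.2, 39.4, 40.3, 40 and 33.7 CPM at 72 h. Adherent 27HC-sEV libraries had 56.4, 43.4, 41.1, 44.2 and 44.2 CPM at 48 h and 47.7, 41.8, 39.4, 35.7 and 27.8 CPM at 72 h. Non-adherent libraries had 65.3, 60.1, 59.3, 52 and 62.3 and, at 72 h, 38.3, 41.8, 40.8 and 45.7 CPM. At 48 h only the highest adherent library, replicate 1, lay above the lowest DMSO-sEV library, replicate 5, and at 72 h all 3 groups overlapped. The log2 fold change against DMSO-sEV cells was -0.66 (SE 0.109, edgeR adjusted p = 1.23e-05) at 48 h. At 72 h it was -0.021 (SE 0.111, edgeR adjusted p = 0.88), with a 95% interval of -0.24 to 0.20, and with offsets -0.41 (adjusted p = 0.00193). Non-adherent cells at 48 h were higher than adherent ones by 0.38 (SE 0.109, edgeR adjusted p = 0.00465), a call that ended with offsets at 0.092 (adjusted p = 0.515). At 72 h that difference was 0.11 (SE 0.117, edgeR adjusted p = 0.479), and -0.072 with offsets. Srebf2 was lower relative to Srebf1 in 27HC-sEV cells: the ratio of their CPM was 2.26 (SD 0.126, n = 5) in DMSO-sEV and 1.45 (SD 0.0377, n = 5) in adherent 27HC-sEV cells at 48 h, and 2.41 (SD 0.25, n = 5) and 1.33 (SD 0.149, n = 5) at 72 h. The ratio's ranges did not overlap between these groups at either time, although the transcripts differ in length, so the ratio compares groups and not the genes' levels.

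Insig1 (Entrez 231070), the retention protein whose gene SREBPs induce, had the largest log2 fold change of the 8 genes against DMSO-sEV cells at both times. DMSO-sEV libraries had 353, 361, 346, 319 and 307 CPM at 48 h and 411, 433, 373, 294 and 302 CPM at 72 h. Adherent 27HC-sEV libraries had 51.7, 56, 50.1, 50.5 and 48.8 CPM at 48 h and 20.6, 27.4, 24, 24.3 and 21 CPM at 72 h. Non-adherent libraries had 43.2, 43.9, 40, 38.7 and 42.4 CPM at 48 h and 23.5, 23.6, 24.5 and 20.2 CPM at 72 h. Every 27HC-sEV library was below 57 CPM and every DMSO-sEV library above 294 CPM, and the 48 h and 72 h libraries of 27HC-sEV cells did not overlap. In adherent cells the log2 fold change was -2.71 (SE 0.093, edgeR adjusted p = 1.88e-19) at 48 h, 6.56-fold lower, and -3.95 (SE 0.099, edgeR adjusted p = 1.17e-22) at 72 h, 15.5-fold lower. Among the log2 fold changes of 13008 genes these stood at rank 15 and rank 6 from the most negative. The fall held in all 23 alternatives at each time, from -2.78 to -2.59 and from -4.12 to -3.65. In bulk RNA a smaller share of expressing cells and less transcript per cell cannot be told apart. DMSO-sEV replicates 4 and 5 were lower than replicates 1 to 3 at 48 h (307 to 319 against 346 to 361 CPM) and at 72 h (294 to 302 against 373 to 433 CPM), and both sets lay well above the 27HC-sEV libraries. Non-adherent cells were lower than adherent ones at 48 h, at -0.30 (SE 0.09, edgeR adjusted p = 0.00608), without overlap, a difference that missed the threshold with offsets at -0.15 (adjusted p = 0.0549). At 72 h it was -0.029 (SE 0.101, edgeR adjusted p = 0.843), and 0.082 with offsets.

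Insig2 (Entrez 72999), the other retention protein, was higher in 27HC-sEV cells at 48 h. DMSO-sEV libraries had 58.2, 57.9, 59.4, 55.2 and 58.7 CPM at 48 h and 95.8, 100.3, 96.4, 70.3 and 72.3 CPM at 72 h. Adherent 27HC-sEV libraries had 90.2, 94.1, 93.9, 84.2 and 77.9 CPM at 48 h and 90.4, 99.8, 101, 101 and 102 CPM at 72 h. Non-adherent libraries had 77.6, 74.7, 71.4, 73.3 and 69.9 CPM at 48 h and 85.8, 86.6, 83.1 and 82.8 CPM at 72 h. At 48 h all 27HC-sEV libraries were above all DMSO-sEV libraries, and at 72 h DMSO-sEV replicates 1 to 3 lay within the range of adherent 27HC-sEV cells while replicates 4 and 5 lay below it. The log2 fold change of adherent against DMSO-sEV cells was 0.61 (SE 0.076, edgeR adjusted p = 1.54e-07) at 48 h, 1.52-fold higher. At 72 h it was 0.18 (SE 0.075, edgeR adjusted p = 0.0321), 0.41 (adjusted p = 1.29e-08) with offsets, 0.018 with no call against DMSO-sEV replicates 1 to 3 alone and 0.49 against replicates 4 and 5 alone. The 72 h call was also lost on leaving out DMSO-sEV replicate 4 or 5 or adherent replicate 2, 3, 4 or 5, with values of 0.12 to 0.18. Non-adherent cells were lower than adherent ones, at -0.26 (SE 0.075, edgeR adjusted p = 0.00452) at 48 h and -0.22 (SE 0.08, edgeR adjusted p = 0.0379) at 72 h, without overlap at either time. Both calls ended with offsets, at -0.065 (adjusted p = 0.275) and -0.084 (adjusted p = 0.221), and the 72 h call was lost without any 1 of 8 of its 9 libraries, all but adherent replicate 1 (-0.24 to -0.21).

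The ratio of Insig1 to Insig2 within a library does not depend on library scaling, and their longest transcripts have the same length, 2.697 kilobases. Insig1 exceeded Insig2 by a factor of 5.82 (SD 0.383, n = 5) in DMSO-sEV cells at 48 h and 4.17 (SD 0.18, n = 5) at 72 h. The ratio was 0.585 (SD 0.0349, n = 5) in adherent and 0.568 (SD 0.0303, n = 5) in non-adherent 27HC-sEV cells at 48 h. It was 0.237 (SD 0.0247, n = 5) and 0.271 (SD 0.0207, n = 4) at 72 h. Insig1 was thus the more abundant Insig transcript in all 10 DMSO-sEV libraries and Insig2 in all 19 27HC-sEV libraries. The sum of both per kilobase, divided by Scap per kilobase, was 8.04 (SD 0.445, n = 5) and 18.3 (SD 4.2, n = 5) in DMSO-sEV cells, earlier time first, and 3.9 (SD 0.507, n = 5) and 3.27 (SD 0.448, n = 5) in adherent 27HC-sEV cells. In non-adherent cells it was 2.66 (SD 0.126, n = 5) and 2.85 (SD 0.342, n = 4). At each time this ratio was lower in every 27HC-sEV library than in every DMSO-sEV library.

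**Figure D2:**
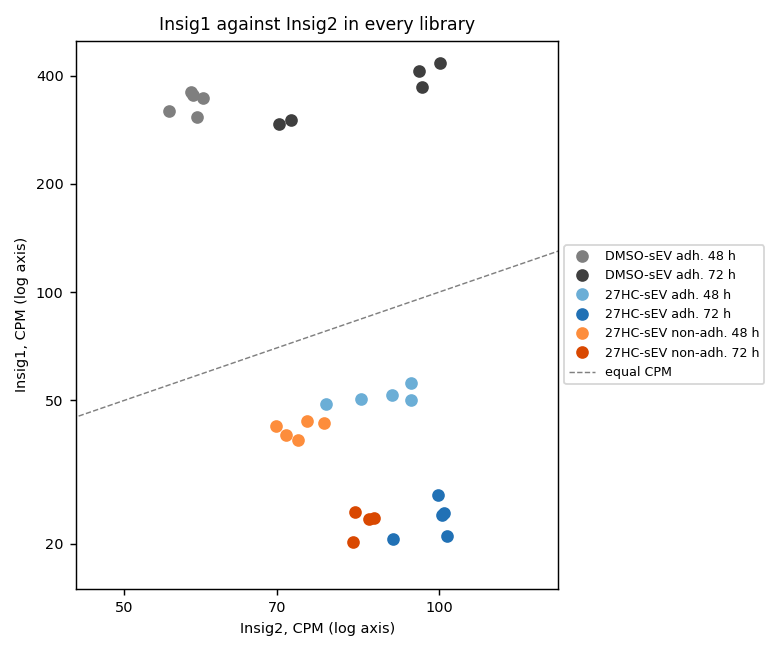
Insig1 against Insig2 CPM in each of the 29 libraries on log axes, coloured by group, with a dashed line of equal CPM. The 10 DMSO-sEV libraries lie above the line and the 19 27HC-sEV libraries below it.

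Scap (Entrez 235623), the escort and cholesterol sensor, was lower in adherent 27HC-sEV than in DMSO-sEV cells at 48 h and higher at 72 h. DMSO-sEV libraries had 80.6, 83.2, 77.8, 78.5 and 65.9 CPM at 48 h and 38.8, 35.9, 37.7, 45 and 38 CPM at 72 h. Adherent 27HC-sEV libraries had 68.3, 51.7, 54.1, 53.5 and 55.9 CPM at 48 h and 68.7, 60.1, 57.5, 58.8 and 51.3 CPM at 72 h. Non-adherent libraries had 73.4, 65.5, 67.6, 63.8 and 68.8 CPM at 48 h and 54.8, 56.3, 59.6 and 68 CPM at 72 h. The DMSO-sEV libraries moved down between the times and the adherent 27HC-sEV libraries overlapped between them. At 48 h the groups overlapped through adherent replicate 1 and DMSO-sEV replicate 5, and at 72 h all 27HC-sEV libraries lay above all DMSO-sEV libraries. The log2 fold change of adherent against DMSO-sEV cells was -0.44 (SE 0.081, edgeR adjusted p = 5.09e-05) at 48 h and 0.60 (SE 0.082, edgeR adjusted p = 3.75e-07) at 72 h, the latter 0.20 (adjusted p = 0.0126) with offsets. The difference between those values, 1.05 (SE 0.116, edgeR adjusted p = 1.86e-07), kept its call with offsets at 0.68 (adjusted p = 5.97e-06). Non-adherent cells at 48 h were higher than adherent ones by 0.26 (SE 0.081, edgeR adjusted p = 0.00919), which turned to -0.039 (adjusted p = 0.676) with offsets. At 72 h the difference was 0.0082 (SE 0.086, edgeR adjusted p = 0.951), and -0.19 with offsets.

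Mbtps1 (Entrez 56453), the site-1 protease, spanned 184 to 238 CPM in DMSO-sEV cells at 48 h and 135 to 165 CPM at 72 h. DMSO-sEV replicates 4 and 5 were lower than replicates 1 to 3 at 48 h (184 to 215 against 230 to 238 CPM) and at 72 h (135 to 143 against 144 to 165 CPM). Adherent 27HC-sEV cells spanned 167 to 232 and 173 to 242 CPM and non-adherent cells 202 to 265 and 187 to 214 CPM at 48 and 72 h. The groups overlapped at 48 h, and at 72 h all 27HC-sEV libraries lay above all DMSO-sEV libraries. Against DMSO-sEV cells, adherent cells had -0.23 (SE 0.092, edgeR adjusted p = 0.0421) at 48 h as log2 fold change. That call was lost without any 1 of 8 of the 10 libraries, all but adherent replicate 1 and DMSO-sEV replicate 5 (-0.24 to -0.18), and with DMSO-sEV replicates 4 and 5 alone the value was -0.074. At 72 h the log2 fold change was 0.46 (SE 0.092, edgeR adjusted p = 8e-05), a call that ended with offsets at 0.062 (adjusted p = 0.625). Non-adherent cells exceeded adherent ones by 0.40 (SE 0.092, edgeR adjusted p = 0.000694) at 48 h, also ended with offsets at 0.10 (adjusted p = 0.476), and differed by -0.011 (SE 0.097, edgeR adjusted p = 0.939) at 72 h, which was -0.20 with offsets.

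Stard4 (Entrez 170459), a soluble carrier that moves cholesterol between membranes, fell with Insig1. DMSO-sEV libraries had 135, 129, 145, 152 and 151 CPM at 48 h and 144, 143, 149, 159 and 163 CPM at 72 h. Adherent 27HC-sEV libraries had 40.3, 40.8, 42.7, 42.2 and 48.5 CPM at 48 h and 27.5, 29.8, 29.6, 27.6 and 26.4 CPM at 72 h. Non-adherent libraries had 38.1, 36, 35.8, 38.1 and 38.8 CPM at 48 h and 29.6, 31.4, 30.7 and 27.6 CPM at 72 h. The lowest DMSO-sEV library, at 129 CPM, was far above the highest 27HC-sEV library, at 48.5 CPM. The log2 fold change of adherent cells was -1.73 (SE 0.057, edgeR adjusted p = 9.35e-20) at 48 h, 3.32-fold lower, and -2.43 (SE 0.059, edgeR adjusted p = 7.51e-23) at 72 h, 5.39-fold lower. It stayed between -1.80 and -1.67 and between -2.50 and -2.37 in 23 alternatives at each time, all called. DMSO-sEV replicates 4 and 5, at 151 to 152 CPM at 48 h and 159 to 163 CPM at 72 h, were above replicates 1 to 3 at both times. Non-adherent cells were lower than adherent ones at 48 h, at -0.20 (SE 0.057, edgeR adjusted p = 0.00477), without overlap, and the value at 72 h was 0.082 (SE 0.062, edgeR adjusted p = 0.316).

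Mylip (Entrez 218203), the ligase for the LDL receptor protein, had the lowest level of the 8 and was not called between vesicle treatments in attached cells at either time. It spanned 9.99 to 13.9 CPM in DMSO-sEV, 10.6 to 13.2 CPM in adherent and 12.5 to 16.5 CPM in non-adherent cells at 48 h. At 72 h it spanned 8.76 to 10.5, 10 to 11.3 and 11.4 to 12.9 CPM in the same order. The 3 groups overlapped at 48 h, and at 72 h non-adherent libraries lay above both others, which overlapped. Adherent against DMSO-sEV cells gave 0.0031 (SE 0.087, edgeR adjusted p = 0.981) on the log2 scale at 48 h, with a 95% interval of -0.17 to 0.17, and 0.13 (SE 0.089, edgeR adjusted p = 0.186) at 72 h, with an interval of -0.040 to 0.31. With DMSO-sEV replicates 1 to 3 alone, whose levels were below those of replicates 4 and 5, the 72 h value was 0.24 and passed. Non-adherent cells were higher than adherent ones at 48 h by 0.28 (SE 0.085, edgeR adjusted p = 0.0072), and at 72 h by 0.19 (SE 0.092, edgeR adjusted p = 0.122), which did not pass. Against DMSO-sEV cells, non-adherent cells were higher by 0.28 (SE 0.086, edgeR adjusted p = 0.00488) at 48 h and 0.32 (SE 0.093, edgeR adjusted p = 0.00319) at 72 h. Both of these calls were lost against DMSO-sEV replicates 4 and 5 alone, at 0.12 and 0.20.

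Counted over the 8 genes, adherent 27HC-sEV against DMSO-sEV cells at 48 h gave 6 lower (Insig1, Stard4, Srebf2, Srebf1, Scap and Mbtps1), 1 higher (Insig2) and 1 that did not pass (Mylip), where 44% of all 13008 tested genes were called in either direction. The median log2 fold change of the 8 was -0.55, against -0.0015 over all tested genes. At 72 h 3 were lower (Insig1, Stard4 and Srebf2), 3 higher (Scap, Mbtps1 and Insig2) and 2 did not pass, where 65.3% of all genes were called, and the medians were 0.057 and 0.0015. A share of 6 in 8 is close to that background, so the number of calls at 72 h is no result about these genes, and the sizes of the Insig1 and Stard4 changes carry the comparison. The difference between the 2 times was called for 7 of the 8 genes, all but Mylip, where 37.3% of all genes were called. Insig1 (-1.24, SE 0.127, edgeR adjusted p = 6.77e-08) and Stard4 (-0.70, SE 0.08, edgeR adjusted p = 2.91e-07) had fallen further at 72 h. Scap, Mbtps1 (0.69, adjusted p = 0.000164), Srebf1 (0.64, adjusted p = 0.00204) and Srebf2 (0.40, adjusted p = 0.0132) had shifted up relative to DMSO-sEV cells, and Insig2 (-0.42, adjusted p = 0.00285) down. With offsets the calls for Insig1, Stard4, Scap and Insig2 held, that for Insig2 at -0.20, that for Scap at 0.68, and those for Mbtps1 (0.35, adjusted p = 0.0718), Srebf1 (0.27, adjusted p = 0.186) and Srebf2 (0.0042, adjusted p = 0.984) were lost. With DMSO-sEV replicates 4 and 5 alone the calls for Srebf1 (0.58), Srebf2 (0.26) and Insig2 (-0.16) were lost. The median over the 8 differences was 0.27, against -0.0040 over all genes.

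**Figure D3:**
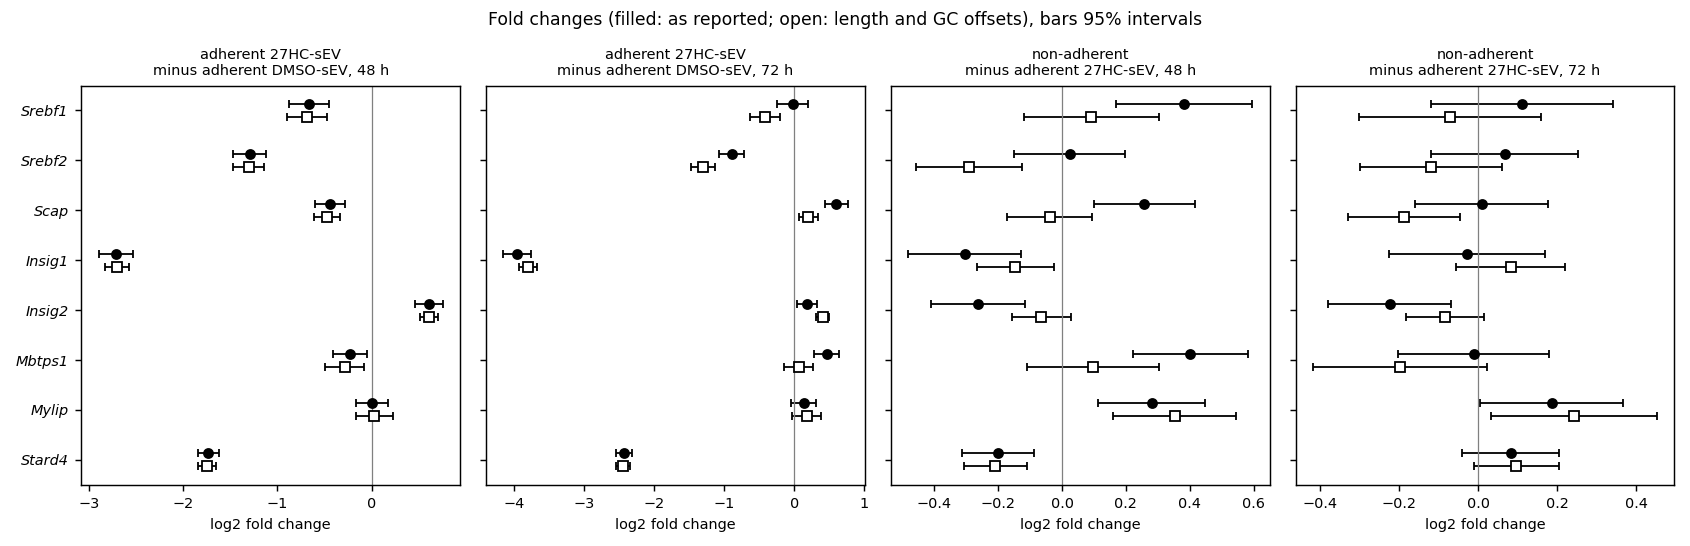
Log2 fold changes of the 8 genes with 95% intervals for the vesicle comparison in attached cells and for the fractions of 27HC-sEV cells, at both times (horizontal scales differ between panels). Filled circles are the values reported and open squares those with length and GC offsets: the Insig1, Stard4 and Srebf2 falls keep direction and call against DMSO-sEV cells, and at 48 h the differences of Srebf1, Scap, Insig1, Insig2 and Mbtps1 between fractions move toward 0.

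Between the fractions of 27HC-sEV cells at 48 h, 4 of the 8 genes were higher in non-adherent cells (Srebf1, Scap, Mbtps1 and Mylip) and 3 lower (Insig1, Insig2 and Stard4), where 54.1% of all genes were called. Sizes were small, from -0.30 to 0.40, with a median of 0.14 against 0.0039 over all genes. With offsets 2 of the 7 calls stood, for Mylip at 0.35 (adjusted p = 0.00454) and Stard4 at -0.21 (adjusted p = 0.00122), and Srebf2 gained one as lower. At 72 h 1 gene, Insig2, was called lower, where 27.5% of all genes were called. With offsets 0 of the 8 were called, where 21.5% of all genes were. The median at 72 h was 0.037 against 0.0025 over all genes. The change of this difference with time was called for 0 of the 8 genes in edgeR and for 2, Mbtps1 (-0.41) and Stard4 (0.29), in DESeq2, where 4.6% of all genes were called in edgeR. At an unadjusted p under 0.05, 3 of the 8 passed in edgeR, which were Scap (-0.25), Mbtps1 (-0.41) and Stard4 (0.28). The share of all genes was not counted at that threshold or in DESeq2, so neither count is a result about these genes. Stard4 passed adjustment with offsets at 0.31 (adjusted p = 0.0113), and without replicate 1 at 48 h or 2 at 72 h of adherent cells or replicate 4 of non-adherent cells at either time (0.29 to 0.32). Mbtps1 passed without replicate 1 at 48 h or 5 at 72 h of adherent cells or replicate 4 of non-adherent cells at 48 h (-0.50 to -0.46). Insig2 turned from 0.039 to -0.020 with offsets.

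Non-adherent cells were also set against DMSO-sEV cells, in a comparison that shares its DMSO-sEV libraries with that of adherent cells. At 48 h 5 genes were lower and 2 higher, where 66.5% of all genes were called, and Insig1 (-3.02, SE 0.094, edgeR adjusted p = 1.1e-20), Stard4 (-1.93, adjusted p = 4.79e-21) and Srebf2 (-1.27, adjusted p = 9.12e-13) fell furthest. The smaller falls of Srebf1 (-0.28, adjusted p = 0.0237) and Scap (-0.19, adjusted p = 0.0428) were less stable: that of Srebf1 was lost without DMSO-sEV replicate 1, 2 or 3 or non-adherent replicate 4 (-0.26 to -0.22), and that of Scap without any 1 of 8 of the 10 libraries, all but DMSO-sEV replicate 5 and non-adherent replicate 1 (-0.19 to -0.13). Against DMSO-sEV replicates 4 and 5 alone both were lost, at -0.099 for Srebf1 and -0.061 for Scap. With offsets both were larger, at -0.59 (adjusted p = 1.99e-05) and -0.51 (adjusted p = 1.24e-07). Insig2 was higher by 0.34 (SE 0.076, edgeR adjusted p = 0.000268), and 0.54 with offsets. Mbtps1 did not pass at 0.17 (adjusted p = 0.1), a value that passed without DMSO-sEV replicate 2 or non-adherent replicate 4 (0.23 to 0.24) and against DMSO-sEV replicates 4 and 5 alone (0.34), and that turned to -0.19 (adjusted p = 0.113) with offsets. At 72 h 3 genes were lower and 3 higher, where 74.5% of all genes were called. Insig1 (-3.98, SE 0.109, edgeR adjusted p = 8.59e-22), Stard4 (-2.35, adjusted p = 8.59e-22) and Srebf2 (-0.83, adjusted p = 1.4e-08) were again the lower ones, Srebf2 at -1.42 with offsets. Of the higher ones, Mylip kept its call with offsets and Scap (0.61) and Mbtps1 (0.45) did not, at 0.015 (adjusted p = 0.866) and -0.14 (adjusted p = 0.286). Srebf1, at 0.091 (adjusted p = 0.491), turned to -0.49 (adjusted p = 0.000669) with offsets, and Insig2, at -0.039 (adjusted p = 0.663), turned to 0.32 (adjusted p = 1.79e-06). Insig2 was called lower against DMSO-sEV replicates 1 to 3 alone (-0.21) and higher against replicates 4 and 5 alone (0.26). The medians over the 8 were -0.23 at 48 h and 0.026 at 72 h, against 0.0032 and 0.028 over all genes.

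From 48 to 72 h in DMSO-sEV cells the genes of both SREBPs, their escort and the site-1 protease fell, and Insig1 and Stard4 were not called. Scap (-0.98, SE 0.083, edgeR adjusted p = 1.04e-09), Srebf1 (-0.89, adjusted p = 2.75e-07), Srebf2 (-0.80, adjusted p = 5.29e-08), Mbtps1 (-0.59, adjusted p = 8.9e-06) and Mylip (-0.28, adjusted p = 0.00942) were lower at 72 h and Insig2 (0.59, adjusted p = 5.55e-07) was higher, 6 of 8 genes where 51.6% of all genes were called. All 6 calls held with offsets, with Srebf2 at -0.45, Mbtps1 at -0.29, Srebf1 at -0.57 and Insig2 at 0.38, and Insig2 had 0.33 with replicates 4 and 5 alone. Insig1 had 0.11 (adjusted p = 0.32), with a 95% interval of -0.064 to 0.27. It passed with replicates 1 to 3 alone at 0.20 and had -0.060 with replicates 4 and 5 alone and -0.024 with offsets. Stard4 had 0.091 (adjusted p = 0.17). In adherent 27HC-sEV cells 3 genes fell, Insig1 (-1.13, SE 0.093, edgeR adjusted p = 1.51e-09), Stard4 (-0.61, adjusted p = 2.38e-08) and Srebf2 (-0.40, adjusted p = 0.00273), where 13.1% of all genes were called. Srebf1, at -0.25 (adjusted p = 0.143), passed without adherent replicate 1 of the 72 h group at -0.34, and Insig2, at 0.17 (adjusted p = 0.159), passed with offsets at 0.19. In non-adherent cells 5 genes fell, Insig1 (-0.86, SE 0.10, edgeR adjusted p = 9.08e-07), Srebf1 (-0.52, adjusted p = 0.003), Srebf2 (-0.36, adjusted p = 0.0125), Stard4 (-0.32, adjusted p = 0.00062) and Mbtps1 (-0.31, adjusted p = 0.0359), where 12.6% of all genes were called. The Mbtps1 call ended with offsets (-0.23, adjusted p = 0.167) and without any 1 of 7 of the 9 libraries, all but replicate 4 of either time (-0.31 to -0.28). Mylip, at -0.25 (adjusted p = 0.0762), passed without non-adherent replicate 4 of 48 h at -0.29, and Insig2, at 0.20 (adjusted p = 0.0915), passed with offsets at 0.17. A fit of only these 2 groups called all 8 genes. The share of all genes called in that fit was not counted, so its count is no result about these genes. The medians over the 8 were -0.43, -0.20 and -0.32 in the order given, against 0.0090, 0.0020 and 0.020 over all genes.

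**Figure D4:**
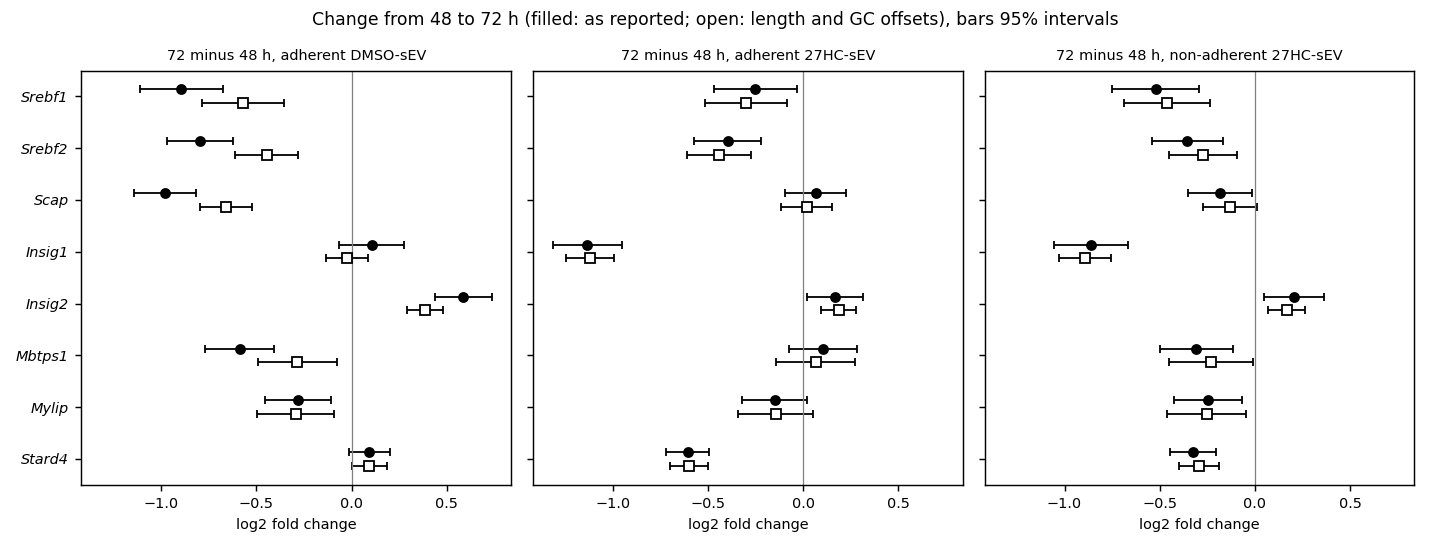
Log2 fold change from 48 to 72 h of the 8 genes with 95% intervals in DMSO-sEV cells, adherent and non-adherent 27HC-sEV cells, on 1 common scale. Filled circles are the values reported and open squares those with offsets: Insig1 fell in both kinds of 27HC-sEV cells (-1.13 and -0.86) and had 0.11 in DMSO-sEV cells, where Scap, Srebf1 and Srebf2 fell.

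The target enzymes of the 2 factors were counted as lists, whose medians stand beside the median of -0.0015 at 48 h and 0.0015 at 72 h over all genes. The counts below are to be read against the 44% of all genes called at 48 h and the 65.3% at 72 h in the same comparisons. Values of list genes are without offsets, with which 97% and 74.4% of all calls held at 48 and 72 h. Of 20 sterol synthesis enzymes all 20 were tested and all 20 fell in adherent 27HC-sEV against DMSO-sEV cells at both times, with medians of -2.67 and -2.72. Hmgcs1, an early enzyme of the mevalonate pathway, had -3.19 (SE 0.048, adjusted p = 4.2e-28) at 48 h and -3.46 (SE 0.049, adjusted p = 6.89e-29) at 72 h. Fdps, which makes farnesyl diphosphate, had -2.90 (SE 0.068, adjusted p = 4.27e-23) and -3.53 (SE 0.07, adjusted p = 4.67e-25). Of 16 fatty acid synthesis genes 15 were tested: 15 fell at 48 h, and 11 fell and 1 rose at 72 h, with medians of -0.96 and -1.01. The desaturases Scd1 (-2.12, SE 0.083, adjusted p = 3.48e-18, and -1.69, SE 0.083, adjusted p = 5.42e-16) and Fads2 (-2.10, SE 0.096, adjusted p = 1.26e-16, and -1.82, SE 0.097, adjusted p = 3.02e-15) had the smallest p. Between fractions at 48 h, 11 sterol enzymes were lower and 1 higher in non-adherent cells (median -0.33, all genes 0.0039), and of 15 fatty acid genes 2 were higher and 2 lower (median 0.063). Of all 13008 genes there, 54.1% were called, 3340 higher and 3693 lower. Without regard to direction, 12 of 20 sterol enzymes is near that share and 4 of 15 fatty acid genes below it. So neither number called is a result about its list. Of the 12 sterol enzymes called 11 were lower, in a comparison where 60.7% of all calls held with offsets. Whether the direction of these enzymes held with offsets was not tested.

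The 19 genes of proteins that process, hold or degrade SREBPs or Insigs went both ways. In adherent against DMSO-sEV cells 4 rose and 2 fell at 48 h (median 0.025), and 10 rose and 6 fell at 72 h (median 0.16), 6 of 19 called where 44% of all genes were and 16 of 19 where 65.3% were. Rnf145, a ubiquitin ligase of the endoplasmic reticulum, rose from 125 to 204 CPM on average at 48 h and from 74.2 to 237 CPM at 72 h, log2 fold changes of 0.71 (SE 0.083, adjusted p = 5.54e-08) and 1.68 (SE 0.086, adjusted p = 1.23e-15). Of 8 other substrates of the site-1 protease 6 were tested: 2 rose and 2 fell at 48 h (median 0.10), and 3 rose and 0 fell at 72 h (median 0.43), so that 4 of 6 and 3 of 6 were called against the same shares. The membrane-bound factor Creb3l2 had -0.41 (SE 0.093, adjusted p = 0.000561) at 48 h, the stress sensor Atf6 0.97 (SE 0.087, adjusted p = 1.59e-10) at 72 h, and Gnptab, which tags lysosomal enzymes, -0.29 (SE 0.071, adjusted p = 0.00152) and 0.64 (SE 0.072, adjusted p = 1.4e-08).

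Genes for lipoprotein uptake and sterol movement gave mixed counts. Of 17 genes of the lipoprotein receptor family and its adaptors 16 were tested: 4 rose and 3 fell at 48 h (median 0.015), and 6 rose and 6 fell at 72 h (median 0.019), 7 and 12 of 16 called against 44% and 65.3% of all genes. Vldlr, the receptor for very low density lipoprotein and like the LDL receptor a known substrate of the Mylip ligase, rose from 1.57 to 6.76 CPM at 48 h and from 1.39 to 8.51 CPM at 72 h, log2 fold changes of 2.10 (SE 0.119, adjusted p = 1.6e-14) and 2.60 (SE 0.12, adjusted p = 1.7e-16). Lrp8, another substrate of that ligase, fell, at -1.02 (SE 0.058, adjusted p = 1.5e-14) at 48 h, and the endocytic receptor Lrp1 rose, at 2.10 (SE 0.17, adjusted p = 2e-11) at 72 h. Of 12 genes for sterol transport inside the cell, all tested, 4 rose and 0 fell at 48 h (median 0.15), and 7 rose and 2 fell at 72 h (median 0.37), 4 and 9 of 12 called against the same shares. Stard4 fell at both times beside them, while Gramd1a (0.36, SE 0.062, adjusted p = 2.5e-05) and Gramd1b (0.58, SE 0.13, adjusted p = 0.000584), which carry cholesterol from the plasma membrane, rose at 48 h. Gramd1b (0.98, SE 0.126, adjusted p = 1.29e-07) and Npc1, the lysosomal cholesterol exporter (1.67, SE 0.133, adjusted p = 1.35e-11), rose at 72 h.

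The liver X receptor list held 10 genes: the receptors, their partner receptors Rxra and Rxrb, and putative targets. Of these 9 were tested: 4 rose and 2 fell at 48 h (median 0.21), and 5 rose and 0 fell at 72 h (median 0.20). At 72 h 5 of 9 is below the 65.3% of all genes called, so the number called, without regard to direction, is no result about the list. All 5 rose, where 4160 of all 13008 genes rose and 4340 fell. The sterol exporter Abcg1 averaged 0.239 CPM in DMSO-sEV and 4.32 CPM in adherent 27HC-sEV cells at 48 h, and 0.0906 and 7.09 CPM at 72 h. Its DMSO-sEV levels lay near the detection limit, so it passed the abundance filter only through 27HC-sEV libraries. Its log2 fold changes, 4.15 (SE 0.294) at 48 h and 6.18 (SE 0.332) at 72 h, are thus a description and not a test. It is among the genes counted as risen. Lpcat3, a phospholipid remodelling enzyme, had -0.72 (SE 0.112, adjusted p = 5.9e-06) at 48 h, and Tmem189 0.67 (SE 0.061, adjusted p = 2.15e-10) at 72 h. Mylip and Srebf1 are both known as targets of the liver X receptors. Over all DMSO-sEV libraries neither was called higher in adherent 27HC-sEV cells at either time. In non-adherent against DMSO-sEV cells Mylip was called higher at 48 h (0.28) and 72 h (0.32), calls lost against DMSO-sEV replicates 4 and 5 alone. Transcripts from the separate Srebf1 starts are not told apart here.

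The genes most like each member across the 29 libraries were found among 9124 genes by Pearson correlation of log2 CPM, a description that mainly follows the 6 group means, since libraries of a group share treatment and time. For Insig1 they were Cyp51 (0.99), Idh1 (0.99) and Fdps (0.99), and for Stard4 Hmgcs1 (0.99), Fdps (0.99) and Cyb5b (0.99). For Srebf2 they included Fads2 (0.98) and Scd2 (0.98). Cyp51, Fdps and Hmgcs1 are sterol enzymes of the list above, and Fads2 and Scd2 are desaturases of the fatty acid list. For Srebf1 they included Fzd2 (0.94) and Lrrc8c (0.93), for Scap Plxnb2 (0.97), Slc6a6 (0.97) and Sema4d (0.97), and for Mbtps1 Edem1 (0.98), Col18a1 (0.98) and Pxdn (0.98). Insig2 was most like Cox7a2l (0.98), Atp6v0b (0.97) and Zfp655 (0.96), and Mylip most like Sh3pxd2a (0.92), Rbbp6 (0.92) and Cc2d2a (0.92). None of the genes named for these last 5 members is in the pathway lists.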

How the data were processed

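Polyadenylated RNA libraries were sequenced, per the labels' protocols. The authors deposited estimated counts per gene. The submitters' processing notes list Salmon 1.10.0, GRCm39 and mm39 with no role stated, and the summing of transcripts into genes is not given in the sources used here. Of these values 40.8% were not whole, and they were rounded. The deposited log2 CPM, TMM-normalized by the authors per the file headers, served in 1 alternative. Genes were kept by filterByExpr (minimum count 10, minimum total 15), scaled by TMM, fitted over all 6 groups in edgeR 4.0.16 under R 4.3.3 (quasi-likelihood, robust) and tested two-sided with Benjamini-Hochberg adjustment over 13008 genes at 0.05. Adjusted p in the text is edgeR's unless named otherwise. The SE is the absolute log2 fold change over the square root of F, and intervals use 1.96 SE. CPM were scaled by TMM, and a prior count of 2 was added for log2 CPM. The labels do not say that replicates are separate cultures, so p-values reflect no more than how these libraries vary, possibly only technically.

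Other settings tried were counts without rounding, factors by RLE or upper quartile, DESeq2 1.42.0, voom and trend in limma 3.58.1, a replicate block, a filter at 1 CPM in each of a group's libraries, a filter at 1 count in all, only the groups compared, DMSO-sEV replicates 1 to 3 or 4 and 5, and leaving out each library. Added after seeing the data were offsets per library, natural splines in length and GC fitted to 10637 genes, from the longest GENCODE M21 transcript on GRCm38 for 93.98% of genes, a build other than the authors'. The scripts were tested on simulated data. The 8 genes are named in every comparison, with 2 genes per list of smallest p in each comparison of adherent with DMSO-sEV cells and the 3 most like each member, except a few that are not reported here. Members and lists were chosen with earlier results of these data known.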

Additional observations from a re-analysis of the deposited data

Results flagged for a closer look

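In 48 sets of libraries (8 genes in 6 groups) the highest or lowest library was compared with the rest by its gap over the range, and 8 stood apart, where chance marks about 1 in 20. In adherent 27HC-sEV cells at 48 h, replicate 1 stood high for Scap at 68.3 CPM and for Srebf1 at 56.4 CPM, and replicate 5 stood high for Stard4 at 48.5 CPM. In DMSO-sEV cells at 48 h, replicate 5 stood low for Srebf1 at 55.1 CPM and for Srebf2 at 136 CPM. Replicate 2 of DMSO-sEV cells at 72 h stood low for Srebf2 at 83.2 CPM, replicate 1 of adherent 27HC-sEV cells at 72 h low for Insig2 at 90.4 CPM, and replicate 4 of non-adherent cells at 48 h low for Mbtps1 at 202 CPM. These libraries were kept.

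The log2 fold change of adherent against DMSO-sEV cells differed between 48 and 72 h, by a test of the difference itself, for 7 of the 8 genes. In the same test 37.3% of all genes were called. The difference (72 h minus 48 h) was -1.24 for Insig1, -0.70 for Stard4, -0.42 for Insig2, 0.40 for Srebf2, 0.64 for Srebf1, 0.69 for Mbtps1 and 1.05 for Scap. With offsets the calls for Mbtps1 (0.35), Srebf1 (0.27) and Srebf2 (0.0042) were lost. With DMSO-sEV replicates 4 and 5 alone those for Srebf1, Srebf2 and Insig2 were lost. For Scap, Srebf1, Srebf2 and Mbtps1 the DMSO-sEV cells themselves fell from 48 to 72 h, by log2 fold changes of -0.98, -0.89, -0.80 and -0.59. For Insig1 and Stard4 the adherent 27HC-sEV cells fell, by -1.13 and -0.61.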

How the results depend on the processing

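The falls of Insig1, Stard4 and Srebf2 against DMSO-sEV cells kept direction and call in every alternative run, in adherent and non-adherent cells at both times. Over all member values, leaving out 1 library left 933 of the results as they were, lost 41 calls, gained 11 and turned 23; the other alternatives except offsets left 937, lost 16, gained 15 and turned 8; offsets left 61, lost 11, gained 4 and turned 12. Where a value changed, the cause was not tested.

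Members called moved as follows. Shares of all genes are given for offsets. They were not counted for the other alternatives, whose counts are thus no result about the 8 genes. Between fractions at 48 h 3 were called with offsets instead of 7, where offsets called 44.7% of all genes. At 72 h 0 were called with offsets, 2 under the replicate block and 0 to 1 on leaving out a library, instead of 1. Offsets called 21.5% of all genes at 72 h. From 48 to 72 h in non-adherent cells a fit of only the groups compared called 8 instead of 5. For the difference between times of adherent against DMSO-sEV cells 4 were called with offsets and 4 with DMSO-sEV replicates 4 and 5, instead of 7. Offsets called 33.2% of all genes for that difference. For the difference between times of non-adherent against adherent cells 2 were called in DESeq2, 2 under the replicate block, 1 in a fit of only the groups compared, 1 with offsets and 0 to 2 on leaving out a library, instead of 0. Offsets called 6.67% of all genes there.

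Values that changed sign, as log2 fold changes, were these. Against DMSO-sEV replicates 4 and 5 alone, Mylip had -0.17 in adherent cells at 48 h, Srebf1 0.082 in adherent cells at 72 h, Insig2 0.26 in non-adherent cells at 72 h and Insig1 -0.060 from 48 to 72 h in DMSO-sEV cells. Without a filter Mylip had -0.00065 in adherent against DMSO-sEV cells at 48 h. Between fractions at 72 h Scap had -0.0071 with upper-quartile factors, -0.027 without a filter and -0.0097 under the replicate block. With offsets, between fractions Srebf2 had -0.29 and Scap -0.039 at 48 h, and Srebf1 -0.072, Srebf2 -0.12, Scap -0.19 and Insig1 0.082 at 72 h. With offsets, non-adherent against DMSO-sEV cells gave -0.19 for Mbtps1 at 48 h, and -0.49 for Srebf1, 0.32 for Insig2 and -0.14 for Mbtps1 at 72 h. Offsets also turned Insig1 from 48 to 72 h in DMSO-sEV cells (-0.024) and Insig2 in the change of the fraction difference with time (-0.020). On leaving out a library, ranges that crossed 0 were -0.046 to 0.074 for Mylip in adherent against DMSO-sEV cells at 48 h, -0.11 to 0.075 for Srebf1 at 72 h, -0.11 to 0.039 for Insig2 in non-adherent against DMSO-sEV cells at 72 h and -0.036 to 0.11 for Srebf2 between fractions at 48 h. Between fractions at 72 h they were -0.060 to 0.067 for Scap, -0.074 to 0.032 for Insig1 and -0.061 to 0.062 for Mbtps1, and for the change with time -0.044 to 0.12 for Srebf2.

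Replicate numbers are shared between groups, but the labels tie them to nothing shared, and in no comparison did every same-numbered pair correlate above 0.1 in its deviations (11 of 42 pairs did, range -0.10 to 0.37). DMSO-sEV cells at 48 and 72 h came closest by that measure, with 4 of 5 pairs above 0.1 against 0 to 2 pairs in the other comparisons. There 3 of 5 libraries correlated best with their own number. In non-adherent against DMSO-sEV cells at 72 h 3 of 4 libraries did so, with 0 pairs above 0.1. Under the replicate block Mylip passed between fractions at 72 h (0.23, adjusted p = 0.0142), Mbtps1 in non-adherent against DMSO-sEV cells at 48 h (0.18, adjusted p = 0.0453) and Srebf1 from 48 to 72 h in adherent 27HC-sEV cells (-0.26, adjusted p = 0.0479), and the 2 gained for the change of the fraction difference with time were Mbtps1 (-0.44) and Stard4 (0.30). Depth limits Mylip most, at 168 to 379 reads per library, and length and GC correction limits the smaller changes of Srebf1, Scap, Mbtps1 and Insig2. Only RNA was measured, so SREBP processing, protein and sterol levels were not analysed here.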

Other observations

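The ratio of Insig1 to Scap CPM within a library was 4.38 (SD 0.214, n = 5) and 9.41 (SD 2.18, n = 5) in DMSO-sEV cells at 48 and 72 h. It was 0.917 (SD 0.118, n = 5) and 0.399 (SD 0.0586, n = 5) in adherent 27HC-sEV cells and 0.615 (SD 0.0333, n = 5) and 0.389 (SD 0.0616, n = 4) in non-adherent cells. Insig1 was the higher of the pair in every DMSO-sEV library, and its CPM was below that of Scap in every library of non-adherent cells and of adherent cells at 72 h. In adherent cells at 48 h the ratio spanned 0.758 to 1.08. The transcripts differ in length, so the ratio compares groups and not the genes' levels. The ratio of Srebf2 to Srebf1 CPM was 1.13 (SD 0.0528, n = 5) and 1.28 (SD 0.0696, n = 4) in non-adherent cells at 48 and 72 h.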
